A study of Mus musculus with 8 samples.

Results

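Fibroblasts whose libraries carry the group name KO were compared with WT fibroblasts at 21% oxygen (normoxia). The comparison takes 4 of the 8 libraries of the study: KO normoxia replicates 1 and 2, and WT normoxia replicates 1 and 2. It runs across the 12107 of 17091 features with a normalised read count that reached 10 in 2 or more of the 8 libraries. At the edge of that rule, 115 tested features had a second-highest value of exactly 10 and 99 untested features had one of 9, with median means of 6.88 and 6.12.

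All libraries came from mouse skin fibroblasts that had been immortalised, that is, adapted to grow in culture without limit. WT cells came from C57BL/6 mice and KO cells from C57BL/6 mice carrying the genotype mir210lox/lox, in which lox sites mark DNA that Cre recombinase can remove. The labels name no Cre and no step that removes Mir210, so KO serves here only as the name of a group. Normoxia cells spent 24 h at 21% oxygen, and the hypoxia cells, shown beside them, 24 h at 1% oxygen. Per the labels, neither the immortalising agent nor the number of lines, animals or separate cultures is given, so each p-value reflects only how far these libraries spread, and that spread may be technical. A genotype difference and a difference between the cell lines cannot be told apart.

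miR-210 is the microRNA most regularly induced by hypoxia-inducible factor (HIF), the transcription factor that mammalian cells stabilise when oxygen is short. A microRNA lowers its target messages by pairing its seed, near its 5′ end, with sites in their 3′ untranslated regions (UTRs). Targets reported for miR-210 include the iron-sulfur scaffold Iscu and subunits of the respiratory chain. In normoxia miR-210 is usually low in cells, so this comparison shows how the KO and WT cells differed before any hypoxia.

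Both mature arms of miR-210 are printed because the genotype given for the KO group names this gene, and because its seed defines the sites searched below. The seed, bases 2 to 8, is in capitals. The sequences are from RefSeq (GRCm38.p6), where the hairpin lies at chr7:141221384-141221493 on the minus strand.
mmu-miR-210-3p: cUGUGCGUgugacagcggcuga
mmu-miR-210-5p: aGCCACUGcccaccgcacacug
The 3p arm, which is the arm usually loaded, spans chr7:141221407-141221428, and the DNA site complementary to its seed is ACGCACA.

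Mir210 was listed at 1, the lowest value in the table, in all 8 libraries, so its own value does not check the labels. Its nearest neighbour on one side, Rassf7, a Ras-association domain gene at chr7:141215860-141218658, was at 246 and 195 in the WT normoxia libraries and at 132 and 146 in the KO normoxia libraries. Both KO values lay below both WT values. The log2 difference, KO minus WT, was -0.65 ± 0.24 (limma SE; unadjusted p = 0.0213, adjusted p = 1), beside -1.01 in hypoxia. Unless stated, each SE and p in this report uses a spread per gene estimated over all 8 libraries, hypoxia groups included. Phrf1, on the other side of Mir210, was at 711 and 550 in WT and at 609 and 590 in KO, and its groups overlapped. Of 23 tested genes flanking Mir210, 3 had both KO libraries above both WT libraries and 4 had both below. Their median log2 difference was -0.01, and -0.36 without KO replicate 1. In hypoxia 2 of the 23 were higher and 13 lower, with a median of -0.39. Over all tested genes, 10% were higher and 11% lower in normoxia, and 26.2% were higher and 24.5% lower in hypoxia. Among tested protein-coding genes of chromosome 7, 19.9% were higher and 32.8% lower in hypoxia, with a median of -0.11.

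The fibroblast label was checked against markers. Collagen I genes, vimentin and fibronectin were among the high genes in every normoxia library: Col1a1 was at 4983 and 8554 in WT and at 5157 and 6111 in KO, and Vim at 31872 and 29258 in WT and at 35333 and 24097 in KO. All 18 fibroblast identity genes passed the filter on low values, but not all were high. Dcn was at 40 and 62 in WT and at 12 and 19 in KO. Both KO libraries were lower for 3 of them, Col3a1, Dcn and Lum, and higher for 0. Summed markers of other cells ran over the 4 normoxia libraries from 87 to 103 for leukocytes, 68 to 122 for endothelium, and 76 to 103 for Schwann cells and melanocytes, with Ptprc and Pecam1 too low to be tested. Keratinocyte markers summed to 800 to 1082, most of it from Perp (728 to 1003), and 8 of 15, Krt5, Krt14 and Epcam among them, were too low to be tested. Low keratinocyte markers that were higher in both KO libraries were Cdh1, at 13 and 8 in WT and at 21 and 34 in KO, and Trp63, at 3 and 8 in WT and at 21 and 15 in KO. Cdh1 was also higher in KO hypoxia, and Trp63 was lower there. The part of these markers in the results was not tested. Adipocyte markers summed to 340 and 705 in WT and to 293 and 296 in KO, and muscle markers to 1480 and 2346 in WT and to 1076 and 1284 in KO. In bulk RNA, fewer cells of a type and less RNA per cell cannot be told apart.

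The 4 normoxia libraries had an estimated 10.15 M and 6.82 M assigned reads in WT replicates 1 and 2, and 6.34 M and 11.76 M in KO replicates 1 and 2. KO normoxia replicate 1 was at one end of the second principal component. On the component with 25.4% of the variance it was at 44.9 and the others between -30.6 and 14.5. Small RNA genes took 7.36% of its total, against 2.7% to 3.69% in the other normoxia libraries, and its slope of expression on transcript length was -0.163, against 0.036 to 0.156. Across genes, the log2 values of both KO normoxia libraries correlated at 0.954 and those of the WT normoxia libraries at 0.97. KO replicate 2 was closer to WT replicate 1 (0.982) than to KO replicate 1. More than a 2-fold difference within the group was found for 1653 genes (13.7%) in KO and 843 (6.96%) in WT. The median absolute log2 difference within a group was 0.473 in KO normoxia and 0.263 in WT normoxia. It was 0.145 in KO hypoxia and 0.322 in WT hypoxia, so an SE shared by all groups may understate the spread of KO normoxia. WT hypoxia replicate 2 was at the end of the first principal component (30% of the variance), at 45.9, and its length slope was -0.144, and the small RNA share was 11.5% in KO hypoxia replicate 1. For lists described at length below, a median that took the other sign without KO normoxia replicate 1 is also given without it.

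No gene passed the test between KO and WT in normoxia. Called at adjusted p under 0.05 were 0 of 12107 genes (0%) by limma on log2(value + 1), a scale that understates the differences of low genes, and the smallest adjusted p was 0.44. At unadjusted p under 0.05, 177 genes were higher in KO (1.46%) and 186 lower (1.54%). Both KO libraries lay above both WT libraries for 1213 genes (10%) and below for 1333 (11%), and such genes are called apart. These shares are the background for every such normoxia count in this report. The median log2 difference of all tested genes was -0.016. No gene was at or below 3 in both libraries of one genotype and at or above 20 in both of the other. For 2 libraries against 2, the smallest two-sided p that an exact permutation test allows is 0.333.

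The genes described next are the 12 per direction with the smallest p among genes with a mean of at least 50 in the higher group and no overlap between groups. Each is named as a gene whose libraries are apart, not as one that passed the test. Adjusted p (limma) was 0.44 for Cd34, 0.544 for Stmn2, Glipr1, Slc1a6 and Tgm2, and 1 for the other 19.

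**Figure D1:**
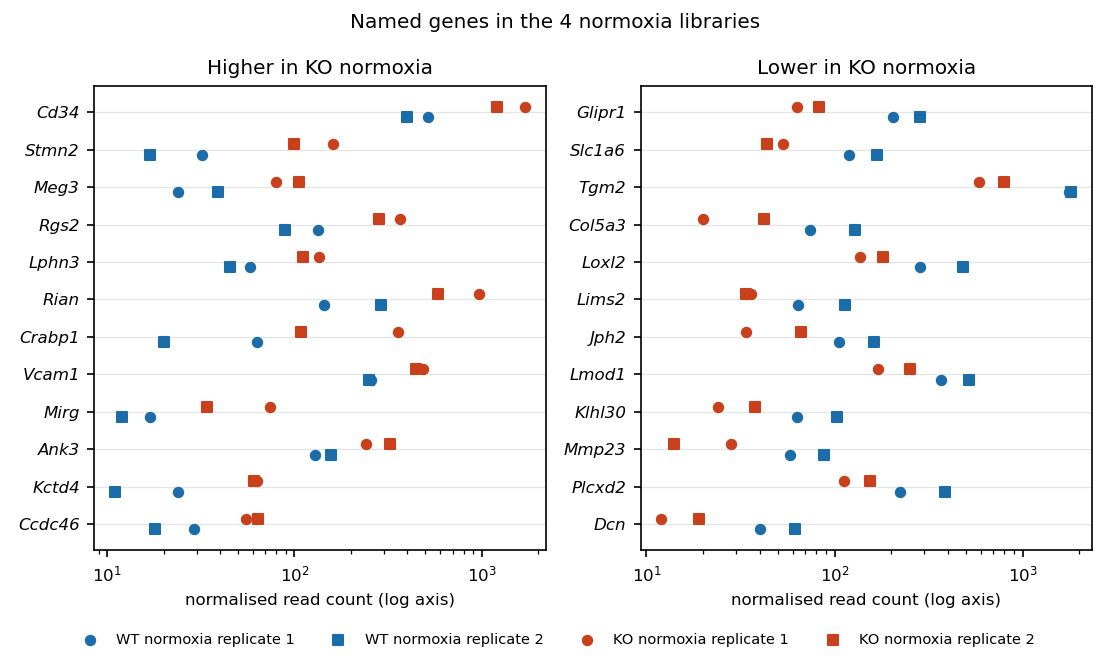
Normalised read count (log axis) of the 24 named genes in each normoxia library, WT in blue and KO in red, circles for replicate 1 and squares for replicate 2. In each row both red points lie on one side of both blue points, since the genes were chosen for that; the spread within a genotype is widest for Crabp1, at 20 and 63 in WT and 108 and 355 in KO.

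Cd34 encodes a surface sialomucin that marks blood progenitors and subsets of dermal fibroblasts, and it lies at chr1:194938819-194961279. It was at 519 and 399 in WT normoxia and at 1704 and 1207 in KO normoxia, so the lower KO library was more than 2 times the higher WT library. The log2 difference was 1.65 ± 0.24 (limma SE; unadjusted p = 3.97e-05, adjusted p = 0.44), and it ran from 1.41 to 1.90 with 1 normoxia library left out.

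Cd34 is in a list of skin fibroblast lineage and positional genes, whose members went both ways. Crabp1, which binds retinoic acid in the cytosol, was at 63 and 20 in WT and at 355 and 108 in KO, a log2 difference of 2.43 ± 0.58. It was 1.57 without KO replicate 1 and 3.28 without KO replicate 2. Foxf2, a forkhead transcription factor, was at 12 and 10 in WT and at 29 and 30 in KO (log2 difference 1.35 ± 0.44). Dlk1, a membrane protein of the Notch ligand family, is in the same list and is given with its imprinted region. Of 16 tested lineage and positional genes, 4 had both KO libraries higher (25%) and 3 had both lower (18.8%), and their median log2 difference was 0.07. The 4 higher were Cd34, Crabp1, Dlk1 and Foxf2, and all 4 were also apart in the same direction in the hypoxia libraries. The 3 lower were transcription factors: Ebf1, at 132 and 157 in WT and at 76 and 113 in KO, Foxf1, at 52 and 48 in WT and at 29 and 37 in KO, and Foxd1, at 37 in each WT library and at 33 and 32 in KO. In hypoxia the groups overlapped for these 3. Of 4 tested pericyte surface genes, 1 was higher in both KO libraries and 1 lower. The higher one, Cspg4, the proteoglycan NG2, was at 969 and 1040 in WT and at 1102 and 1384 in KO, with a log2 difference of 0.30 ± 0.23. The lower one, Mcam, an adhesion molecule, was at 1019 and 727 in WT and at 651 and 678 in KO.

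The imprinted Dlk1-Dio3 region on chromosome 12 expresses Dlk1 from the paternal copy and the non-coding RNAs Meg3, Rian and Mirg from the maternal copy. Of its 5 tested genes, 4 had both KO libraries above both WT libraries. For the remaining gene the groups overlapped, and its log2 difference of 0.62 was the lowest of the 5. Meg3, at chr12:109541001-109571726, was at 24 and 39 in WT and at 80 and 106 in KO (log2 difference 1.56 ± 0.32). Rian was at 143 and 289 in WT and at 961 and 587 in KO (1.88 ± 0.44). Mirg was at 17 and 12 in WT and at 74 and 34 in KO (1.74 ± 0.44). These host transcripts of small RNAs were thus higher in the KO libraries together with the protein-coding Dlk1, which was at 10 and 23 in WT and at 49 and 36 in KO (1.40 ± 0.43). The list's median log2 difference was 1.56, between 1.19 and 1.90 with 1 normoxia library left out. Rtl1, Dio3os and Begain were too low to be tested. Among 18 tested imprinted genes outside the region, 1 was higher in both KO libraries and 5 were lower, with a median of -0.14 (0.07 without KO replicate 1 and -0.39 without KO replicate 2); Mest, at 210 and 626 in WT and at 191 and 181 in KO, had a wide WT spread.

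The other 7 genes of the higher set have diverse roles. Stmn2, a stathmin that binds tubulin in neurons, was at 32 and 17 in WT and at 161 and 99 in KO (log2 difference 2.38 ± 0.41). Rgs2, which damps G protein signalling, was at 134 and 89 in WT and at 368 and 282 in KO (1.55 ± 0.34). Vcam1, the adhesion molecule that captures leukocytes, had the tightest groups of the set: it was at 257 and 251 in WT and at 487 and 445 in KO (0.87 ± 0.21). Ank3, an ankyrin that ties membrane proteins to spectrin, was at 129 and 157 in WT and at 240 and 323 in KO. Lphn3, an adhesion G protein-coupled receptor, was at 58 and 45 in WT and at 135 and 111 in KO. The low genes Kctd4 and Ccdc46 were at 24 and 11, and at 29 and 18, in WT. In KO they were at 63 and 61, and at 55 and 64.

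Vcam1 belongs to a list of NF-kB and inflammatory mediators, of whose 24 tested genes 8 were higher in both KO libraries and 1 was lower. The list's median log2 difference was 0.14, and it was 0.32 without KO replicate 2, 0.26 without WT replicate 2 and 0.02 among members that reach 50 in 2 or more libraries. Nfkbia, the inhibitor of NF-kB, was at 333 and 380 in WT and at 476 and 443 in KO. Cx3cl1, a membrane-bound chemokine, was at 395 and 425 in WT and at 608 and 482 in KO. Tnfaip3, a deubiquitinase that restrains the pathway, was the lower one, at 521 and 351 in WT and at 231 and 337 in KO. Apart from Vcam1, none of these reached an unadjusted p of 0.05.

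Among the lower genes, Glipr1 had the smallest p. It encodes a secreted CAP domain protein at chr10:111985448-112002631, and it was at 205 and 285 in WT and at 63 and 83 in KO. The log2 difference was -1.73 ± 0.31 (limma SE; unadjusted p = 0.000217, adjusted p = 0.544). Slc1a6, a glutamate transporter, was at 119 and 169 in WT and at 53 and 44 in KO (-1.53 ± 0.28). Tgm2, the transglutaminase that crosslinks matrix proteins, was at 1765 and 1819 in WT and at 587 and 796 in KO (-1.39 ± 0.26), the highest level in this set.

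The remaining 9 of the lower set follow. Dcn, the collagen-binding proteoglycan decorin, was at 40 and 62 in WT and at 12 and 19 in KO (log2 difference -1.66 ± 0.44). Mmp23, a membrane-anchored metalloproteinase, was at 58 and 88 in WT and at 28 and 14 in KO (-1.80 ± 0.45). Loxl2, which oxidises lysines of collagen, was at 285 and 484 in WT and at 137 and 181 in KO (-1.23 ± 0.29). Col5a3, a type V collagen chain, belongs here too, at 74 and 128 in WT and at 20 and 42 in KO (-1.71 ± 0.40). Lmod1, an actin nucleator of smooth muscle, was at 366 and 517 in WT and at 170 and 253 in KO (-1.06 ± 0.27). Jph2, which couples the plasma membrane to the sarcoplasmic reticulum, was at 105 and 162 in WT and at 34 and 66 in KO (-1.44 ± 0.36). Lims2, a focal adhesion adaptor, was at 64 and 113 in WT and at 36 and 34 in KO. Klhl30 and Plcxd2 had log2 differences of -1.39 ± 0.35 and -1.15 ± 0.30.

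Contractile and TGF-beta responsive genes, the programme of activated fibroblasts, had the largest share of lower genes among lists with at least 20 tested members. Of 29 tested genes, 13 were lower in both KO libraries (44.8%, beside 11% of all genes) and 1 was higher, and the median log2 difference was -0.25. It was -0.40 without KO replicate 2, -0.39 without WT replicate 1 and -0.21 without WT replicate 2. The smooth muscle actin gene Acta2 was at 44897 and 58594 in WT and at 35819 and 31462 in KO (log2 difference -0.61 ± 0.31). Tagln, the actin-binding transgelin, was at 18427 and 28914 in WT and at 15683 and 14524 in KO (-0.61 ± 0.31). Cnn1, calponin, was at 3514 and 5264 in WT and at 3240 and 2395 in KO (-0.63 ± 0.27). For all of these WT replicate 2 was the highest library, while the higher KO library stayed below the lower WT library. Myl9, the regulatory light chain of smooth muscle myosin, was at 2052 and 3140 in WT and at 1366 and 1576 in KO (-0.79 ± 0.25). Myh11, the smooth muscle myosin heavy chain, ran from 67 to 398 within WT alone, beside 25 and 65 in KO. Smad3, a TGF-beta signal transducer, was the 1 higher gene, at 769 and 645 in WT and at 848 and 842 in KO.

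Matrix genes were also lower more often than higher. Of 21 tested collagen genes, 7 were lower in both KO libraries and 1 was higher, with a median log2 difference of -0.33. Col4a1, a basement membrane chain, was at 3555 and 4818 in WT and at 2019 and 2678 in KO (-0.83 ± 0.25), and its partner Col4a2 was at 2093 and 2790 in WT and at 1589 and 1823 in KO. Col6a3 was at 3157 and 4446 in WT and at 1588 and 2596 in KO (-0.88 ± 0.28), and Col3a1 at 2242 and 4428 in WT and at 1986 and 1509 in KO (-0.86 ± 0.34). The main fibrillar genes Col1a1 and Col1a2 overlapped between the groups. Col8a2 was the higher one, at 10 and 36 in WT and at 80 and 41 in KO. The collagen median was -0.71 without WT replicate 1 and -0.13 without WT replicate 2, so its size depended on which WT library was kept.

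Proteoglycans and matricellular proteins had 8 lower and 1 higher of 45 tested genes (median -0.29). Ctgf, a matricellular protein induced by TGF-beta, was at 13902 and 22416 in WT and at 7775 and 12365 in KO (-0.85 ± 0.33). Fbn2, a microfibril protein, was the higher one, at 67 and 101 in WT and at 219 and 184 in KO (1.28 ± 0.39). Without WT replicate 2 the median of this list was 0.07, on the other side of 0. Matrix proteases and their inhibitors had 8 lower and 0 higher of 29 (median -0.40, with -0.64 without KO replicate 2 and -0.21 without KO replicate 1). Adamts1, a secreted protease of proteoglycans, was at 735 and 1194 in WT and at 500 and 591 in KO (-0.78 ± 0.30). Markers of skeletal and smooth muscle, which share Myh11 with the contractile list, had 4 lower of 6 tested. Myf5 and Des were too low to be tested. Of these 4 lower markers, 0 were apart and lower in hypoxia and 2 were apart and higher. The median of the muscle list in hypoxia was 0.03. Whether other cell types took part in these differences was not tested.

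**Figure D2:**
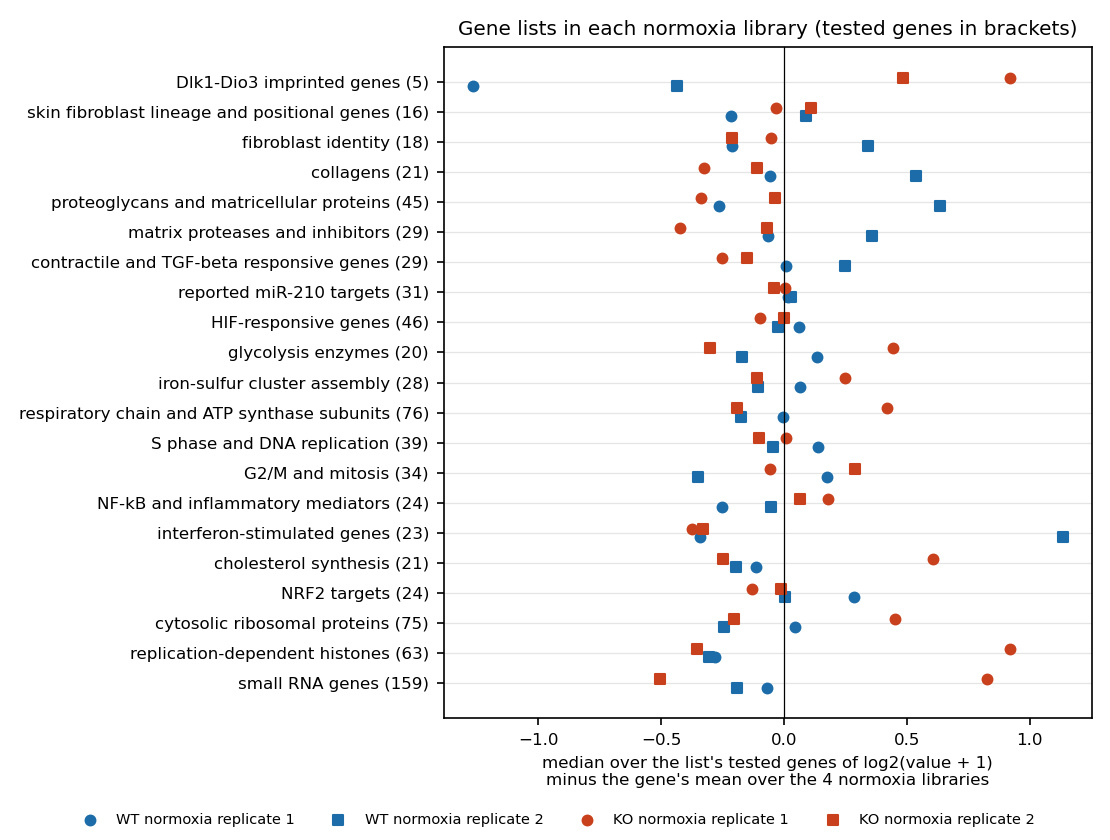
For 21 gene lists, the median over tested genes of log2(value + 1) minus the gene's mean over the 4 normoxia libraries, one point per library, WT in blue and KO in red, circles for replicate 1 and squares for replicate 2. For the Dlk1-Dio3 genes both KO points lie above both WT points; for interferon-stimulated genes WT replicate 2 is alone at 1.13; for histone genes KO replicate 1 is alone at 0.92.

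Reported miR-210 targets showed no shared direction in normoxia. Of 31 tested targets, 3 were higher in both KO libraries (9.68%, beside 10% of all genes) and 2 lower (6.45%, beside 11%). Their median log2 difference was -0.07, and 0 of them reached an unadjusted p of 0.05. Iscu was at 90 and 120 in WT and at 108 and 82 in KO (-0.14 ± 0.28). Sdhd, a subunit of complex II, was at 1601 and 1340 in WT and at 1915 and 1201 in KO (0.05 ± 0.26), and Gpd1l, a glycerol-3-phosphate dehydrogenase, at 286 and 260 in WT and at 266 and 254 in KO (-0.07 ± 0.23). For these 3 the groups overlapped. Ndufa4 (0.35 ± 0.31), E2f3 (-0.29 ± 0.27) and Fgfrl1 (-0.55 ± 0.35) overlapped as well. Cox10, needed for heme A synthesis, was lower in both KO libraries, at 242 and 202 in WT and at 177 and 179 in KO (-0.31 ± 0.31). Efna3 was between 4 and 8 in the normoxia libraries and was not tested.

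Sites for the seed are shown to let the match be read in its context. The letters ACGCACA, which pair with bases 2 to 8 of miR-210-3p, were searched on the transcript strand of 1 annotated 3′ UTR per gene (GENCODE, GRCm38). Each line gives 8 bases before the match, the match in capitals and 8 bases after it. The Gpd1l UTR holds 3 matches, of which the first, at base 181, is shown; the match of Fgfrl1 starts at base 80 and that of Kcmf1, a ubiquitin ligase, at base 569.
Gpd1l: agacacacACGCACAtgagtgaa
Fgfrl1: attcacacACGCACAtgtttaaa
Kcmf1: tgcctcctACGCACAaagccagc
In Kcmf1 the match is followed by an A, the 8-base form. Kcmf1 was at 1391 and 1033 in WT and at 1216 and 1160 in KO (-0.01 ± 0.23). The UTRs of Iscu, Sdhd, E2f3, Cox10 and Ndufa4 used here do not hold these letters.

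Over all genes, 371 of 11309 tested genes with an annotated 3′ UTR (3.28%) held at least 1 match. Their median log2 difference in normoxia was -0.08, against -0.02 for the 10938 genes without one. At unadjusted p under 0.05, 7 of them were higher in KO and 6 lower. Both KO libraries were higher for 8.89% of them and lower for 11.9%, near the shares over all genes. Genes with a match had longer UTRs, with a median of 2586 bases against 982. The part of UTR length in the difference was not tested.

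HIF-responsive genes are the genes that cells switch on in low oxygen. Of 46 tested, 11 were lower in both KO libraries (23.9%) and 5 were higher, and the median log2 difference was -0.08. Vegfa, the vascular growth factor, was at 539 and 705 in WT and at 294 and 491 in KO (-0.70 ± 0.28). Adm, the vasodilator peptide adrenomedullin, was at 128 and 154 in WT and at 88 and 84 in KO (-0.70 ± 0.28). Ak4, a mitochondrial adenylate kinase, was at 170 and 115 in WT and at 86 and 101 in KO (-0.58 ± 0.26), and Bnip3, a mitophagy receptor, at 51 and 53 in WT and at 40 and 32 in KO. Those 4 and Loxl2 make up part of the lower set. Edn2, an endothelin, was low and went the other way, at 3 and 4 in WT and at 11 and 9 in KO (1.29 ± 0.44). Glycolysis enzymes had 3 lower (15%) and 0 higher of 20, but 13 of the 20 log2 differences were positive and the median was 0.06. In hypoxia 2 of those 3 lower enzymes were apart and higher in KO. Iron-sulfur cluster assembly genes had 2 lower and 4 higher of 28.

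Interferon-stimulated genes differed between the WT libraries more than between the genotypes. Ifi44 was at 5 and 64 in WT replicates 1 and 2 and at 3 in each KO library. Usp18, which limits interferon signalling, was at 2 and 68 in WT and at 8 and 7 in KO, and Irf9, a subunit of the interferon-activated factor ISGF3, at 92 and 257 in WT and at 107 and 73 in KO. WT replicate 2 was high and the other 3 normoxia libraries were alike. The sum over the list was 1645 and 3573 in WT normoxia and 1836 and 1982 in KO normoxia. In hypoxia it was 1497 and 2818 in WT and 1733 and 1778 in KO, so there too WT replicate 2 was the high library. The median log2 difference of the 23 tested genes was -0.60 with all libraries and 0.07 without WT normoxia replicate 2.

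**Figure D3:**
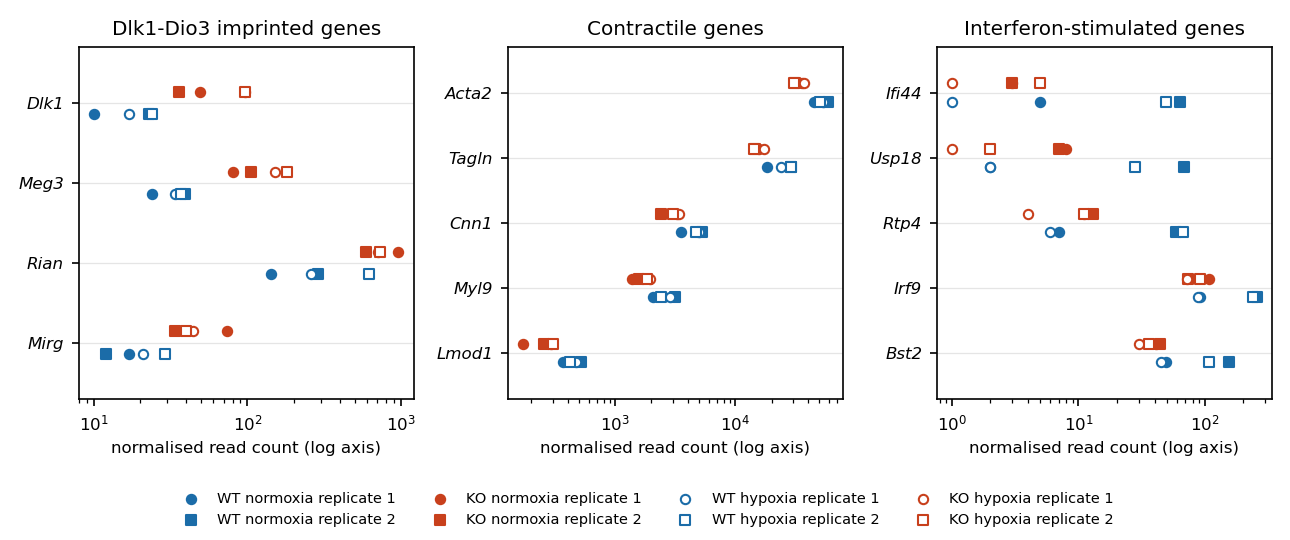
Normalised read count (log axis) in all 8 libraries for 4 genes of the Dlk1-Dio3 region, 5 contractile genes and 5 interferon-stimulated genes, WT in blue and KO in red, filled points in normoxia and open points in hypoxia, circles for replicate 1 and squares for replicate 2. The KO and WT points are apart at both oxygen levels for the first 9 genes, while in the last panel both WT replicate 2 points lie to the right of the rest.

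Several gene lists were high in KO replicate 1 alone. For replication-dependent histones, whose messages end in a stem-loop in place of a poly(A) tail, the median log2 difference was 0.54 over 63 tested genes. It was -0.06 without KO replicate 1 and 1.24 without KO replicate 2. Hist1h1b was at 3833 and 3555 in WT and at 9236 and 4503 in KO. For small RNA genes the median was 0.26, and -0.38 without KO replicate 1. Cytosolic ribosomal proteins (0.24, and -0.09 without that library), respiratory chain and ATP synthase subunits (0.17 and -0.10), glycolysis enzymes (0.06 and -0.23) and cholesterol synthesis enzymes (0.44 and -0.04) also took the other sign. The share of small RNA and the length slope of this library, given above, moved with these groups, and their part was not tested directly. With the length trend removed the medians were -0.03 for small RNA genes, 0.45 for histones and 0.16 for ribosomal proteins. They were 0.09 for respiratory chain subunits, 0.08 for glycolysis enzymes and 0.43 for cholesterol synthesis. Near-identical histone and ribosomal genes may share reads, so values of single members are uncertain.

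Of 39 tested S phase genes 9 were lower in both KO libraries (23.1%) and 2 higher (median -0.11). Of 34 G2/M genes 0 were lower and 3 higher (8.82%, below the 10% of all genes; median 0.15), and 2 of these 3 were lower in KO hypoxia. Ccne1, the cyclin that starts S phase, was at 475 and 642 in WT and at 299 and 320 in KO (-0.83 ± 0.23). Ccnb2, a mitotic cyclin, was at 859 and 417 in WT and at 1063 and 958 in KO (0.75 ± 0.33). The G2/M median was -0.10 without WT replicate 2, 0.003 without KO replicate 2 and 0.39 without WT replicate 1. The S phase median was -0.009 without WT replicate 1, -0.025 without KO replicate 2 and -0.21 without WT replicate 2. Regulators of senescence and immortalisation had 1 lower and 4 higher of 21, and p53 target genes 1 lower and 4 higher of 24, with none at unadjusted p under 0.05. The median of the senescence and immortalisation list was -0.07, and 0.13 without KO replicate 1. Cdkn1a, the p53-induced cell cycle inhibitor p21, was at 177 and 183 in WT and at 195 and 193 in KO. NRF2 targets of the antioxidant response had 7 lower and 2 higher of 24 (median -0.25), among them the thioredoxin reductase Txnrd1, at 5274 and 4470 in WT and at 2652 and 4329 in KO, where KO replicate 1 was the low library. The median of this list was -0.11 without KO replicate 1, -0.10 without WT replicate 1 and -0.42 without WT replicate 2.

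The hypoxia libraries share no sample with the normoxia comparison, though they come from cells of the same 2 groups, and the labels do not say that they are separate cultures. In hypoxia, both KO libraries lay above both WT libraries for 3176 genes (26.2%) and below for 2971 (24.5%). Of the 177 genes higher in KO normoxia at unadjusted p under 0.05, 103 (58.2%) were also apart and higher in hypoxia, and 19 (10.7%) were apart and lower. Of the 186 lower genes, 90 (48.4%) were also apart and lower in hypoxia, and 14 (7.53%) apart and higher. The p-values draw on the spread within the hypoxia groups, which favours genes with tight hypoxia groups of either direction. Of the named genes, 12 of 12 higher ones and 10 of 12 lower ones were apart in the same direction.

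Col5a3 and Loxl2 were the exceptions among the named genes. Col5a3 was at 62 and 54 in WT hypoxia and at 61 and 55 in KO hypoxia, a log2 difference of 0.00 beside -1.71 in normoxia. Loxl2 was at 532 and 433 in WT hypoxia and at 498 and 588 in KO hypoxia. Glipr1, Mmp23 and Meg3, in contrast, were farther apart in hypoxia. Glipr1 was at 229 and 369 in WT hypoxia and at 68 and 58 in KO hypoxia. Mmp23 was at 72 and 144 in WT hypoxia and at 21 and 17 in KO hypoxia. The log2 difference of Meg3 was 2.18 in hypoxia beside 1.56 in normoxia. Ank3 (1.02 in hypoxia beside 0.96) and Dcn (-1.75 beside -1.66) were slightly farther apart. The test of the difference between oxygen levels called 0 genes (0%; 380 at unadjusted p under 0.05, smallest adjusted p 0.857 by limma). No named gene is therefore shown to differ in its KO minus WT difference between oxygen levels.

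**Figure D4:**
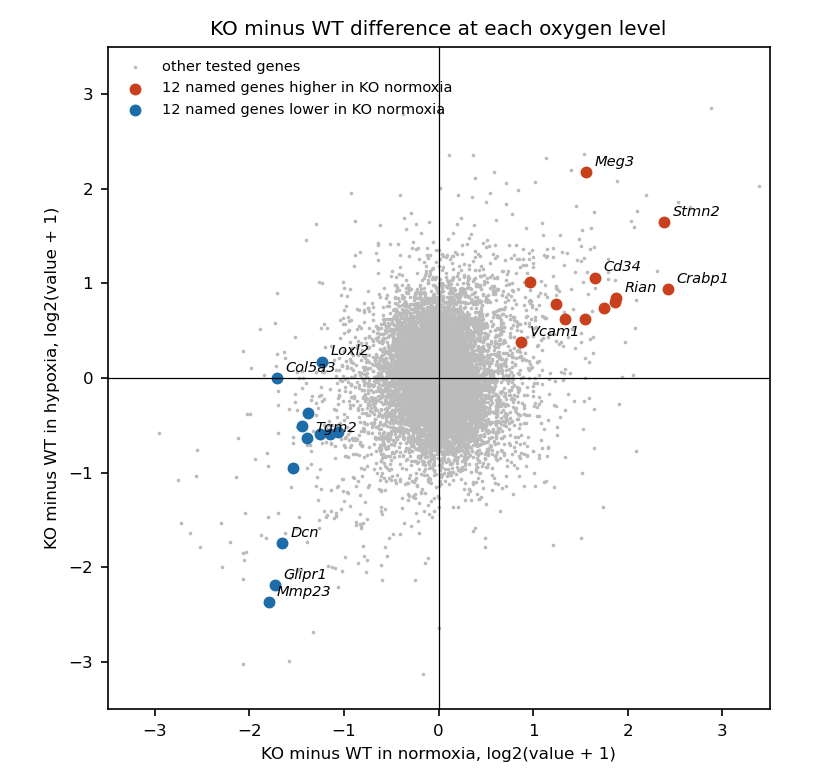
KO minus WT difference on the log2(value + 1) scale in normoxia (horizontal) and hypoxia (vertical) for 12107 tested genes, with the named higher genes in red and the named lower genes in blue. The 12 red points lie above and to the right of 0, and 10 of the 12 blue points below and to the left of it, with Col5a3 and Loxl2 at or just above the horizontal line.

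Over all genes, 3.46% were higher in KO and apart at both oxygen levels and 3.45% were lower at both. The Dlk1-Dio3 region had 4 of 5 tested genes higher at both, the lineage and positional list 4 of 16 (25%) and the NF-kB list 5 of 24 (20.8%). Lower at both were 7 of 29 contractile genes (24.1%), 3 of 18 fibroblast identity genes (16.7%), 6 of 46 HIF-responsive genes (13%), 5 of 39 S phase genes (12.8%) and 5 of 45 proteoglycans and matricellular proteins (11.1%). The 7 contractile genes are Acta2, Tagln, Cnn1, Myl9, Lmod1, Tpm2 and Tpm4, which encode actin, its binding proteins and myosin light chain. The contractile list's median log2 difference in hypoxia was 0.06, since other members such as Myh9 and Actn1 were higher in KO hypoxia. Collagens had 2 genes lower at both oxygen levels and 1 with the opposite order, and their median in hypoxia was 0.03. In hypoxia 9 of the 18 fibroblast identity genes were higher in KO and 5 lower, with a median of 0.22. The normoxia median of that list was -0.12, and 0.13 without WT replicate 2. Dcn is a member of both the fibroblast identity list and the proteoglycan list, so these counts are not separate. Of the 12 histone genes higher in KO normoxia, 0 were higher and 7 were lower in KO hypoxia, where the list's median was -0.65. The list's sum was 39264 and 38069 in WT normoxia and 91825 and 39548 in KO normoxia. In hypoxia it was 61949 and 95514 in WT and 56155 and 38665 in KO. KO replicate 1 was thus the high library in normoxia, and WT replicate 2 in hypoxia. Across all genes the log2 differences at the 2 oxygen levels had a Pearson correlation of 0.16, given as a description.

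How far the 2 oxygen levels matched depended on the KO normoxia library used. Without KO replicate 1, 338 genes were higher at unadjusted p under 0.05, and 93.8% of them were apart in the same direction in hypoxia. Without KO replicate 2, 969 genes were higher, of which 15.5% were apart in the same direction and 52.4% in the opposite one. The lower genes did likewise: 82.3% of 237 matched without KO replicate 1, and 10.6% of 1575 without KO replicate 2, with 55.6% opposite. With either KO library left out, the lone one was assumed to vary like the other groups.

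**Figure D5:**
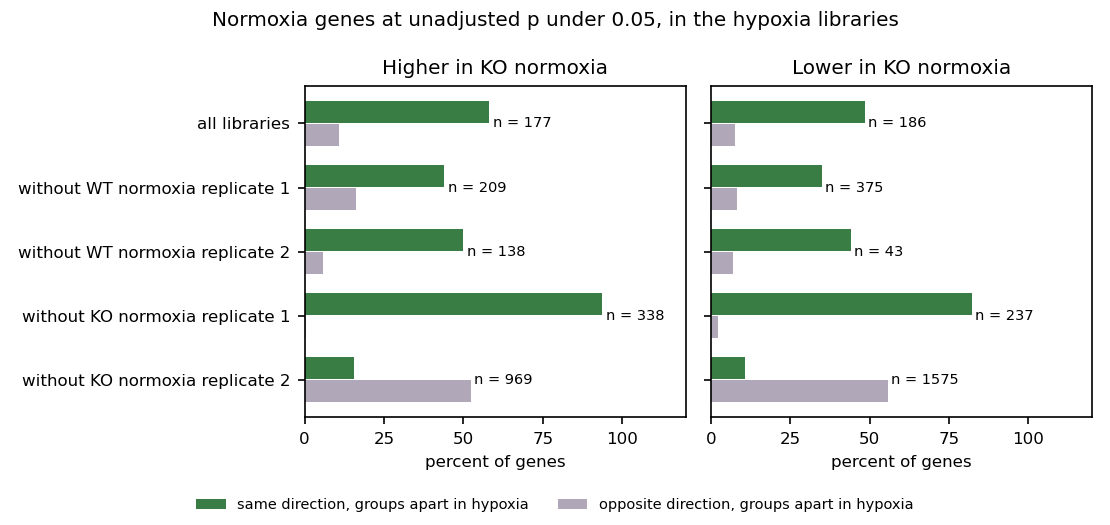
Percent of the genes at unadjusted p under 0.05 in normoxia whose KO and WT libraries were apart in the same direction (green) or the opposite direction (grey) in hypoxia, with all libraries and with each normoxia library left out; n is the number of genes. The same-direction bar is longest without KO normoxia replicate 1 (93.8% and 82.3%), and only without KO normoxia replicate 2 is the opposite bar the longer one.

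Over both oxygen levels together, 3 of 12107 genes passed the test (0.0248%; limma, adjusted p = 0.0436 for each), a comparison that contains the normoxia libraries. Cd34 and Meg3 were higher in KO, and Glipr1 was lower. All 4 KO libraries lay on one side of all 4 WT libraries for each: Cd34 was at 619 and 588 in WT hypoxia and at 1247 and 1274 in KO hypoxia, and Meg3 at 34 and 37 in WT hypoxia and at 150 and 180 in KO hypoxia. With any 1 of the 8 libraries left out, 0 genes passed. In hypoxia alone the count was 0 (0%; 910 at unadjusted p under 0.05, smallest adjusted p 0.29 by limma).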

How the data were processed

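RNA was measured in 8 libraries, 2 in each of 4 groups. Per the labels' protocols, total RNA was extracted with a miRNeasy kit and the small RNA library kit of New England Biolabs for SOLiD was used. The values deposited by the authors are a score per feature: per the file's name, normalised read counts, in whole numbers of at least 1. For the aligner, counter, build, strand and normalization, nothing is given in the sources used here. No count model was run. Overlapping, antisense and near-identical genes may share reads. Depth was estimated from the spacing of low values. Sample columns left unused numbered 0. Of 17091 features, 16767 matched GENCODE (GRCm38) by symbol or synonym, 26 had names turned into dates and 2 were repeated.

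Values were taken as log2(value + 1), and features at 10 or more in at least 2 libraries were tested with limma 3.58.1 (R 4.3.3, trend, 4 groups, no replicate block, two-sided, 10.2 degrees of freedom). Benjamini-Hochberg adjustment ran over 12107 features, with a threshold of 0.05. The test was tried on simulated data in which all groups varied alike and no library stood apart. That trial does not show how the test behaves with a library such as KO normoxia replicate 1. Named genes were the 12 per direction described in the report, list members at unadjusted p under 0.05 (up to 4 per list), Mir210 with its neighbours and targets, and genes called over both oxygen levels; other genes named were chosen after their values were seen. Lists were described by counts and medians, with no test. The members, lists and rules were chosen with earlier results of these data known. Alternatives were another pseudocount, filters, scalings, the normoxia libraries alone, a replicate block, a length correction and each library left out.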

Additional observations from a re-analysis of the deposited data

How the results depend on the processing

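In normoxia 0 genes were called under every alternative run. The count at unadjusted p under 0.05 (363) was 212 with the normoxia libraries fitted alone and ran from 181 to 2544 with 1 library left out (181 without WT normoxia replicate 2, 575 without KO normoxia replicate 1, 584 without WT normoxia replicate 1, 2544 without KO normoxia replicate 2). It was 864 without KO normoxia replicate 1 and WT hypoxia replicate 2 together, an alternative chosen after seeing the data. With no filter it was 543 and with a filter at 50 it was 254. The cause was not tested. Over both oxygen levels the 3 called genes became 6 with the length trend removed and 5 with small RNA genes left out, and 0 with no filter, with the filter at 50, with those 2 libraries left out together and with any 1 library left out (lowest 0, highest 0). Adjusted p ran from 0.0133 to 0.29 for Cd34, from 0.00665 to 0.265 for Glipr1 and from 0.0111 to 0.275 for Meg3. In hypoxia, and for the difference between oxygen levels, 0 genes were called under every alternative run. The replicate block gave 511 genes at unadjusted p under 0.05, 0 called in normoxia and 4 called over both oxygen levels. Deviations of same-numbered libraries correlated at 0.565 between the WT groups, 0.229 between the KO groups, 0.112 between the normoxia groups and -0.112 between WT hypoxia and KO normoxia. The labels give the numbers no shared source, so they were not used to pair samples; within a genotype, libraries of the 2 oxygen levels may not be independent, which bears on the test over both levels. Among the values of named genes under alternatives, 10 of 1355 took the other sign, all of E2f3, Iscu, Phrf1 or Sdhd, none of which was at unadjusted p under 0.05 with all libraries; the 2 farthest from 0 were -0.29 for Sdhd without KO normoxia replicate 1 and 0.12 for Phrf1 without WT normoxia replicate 1. A value near 10 rests on few reads, and counting error is then large.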

Other observations

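Genes of the Y chromosome were higher in both KO normoxia libraries for 4 of 4 tested, with a median log2 difference of 0.65. Eif2s3y, a translation factor subunit, was at 284 and 260 in WT and at 446 and 404 in KO, and Uty, a histone demethylase relative, at 235 and 285 in WT and at 417 and 424 in KO. In hypoxia 1 of the 4, Kdm5d, was apart in the same direction. Xist, the RNA of the inactive X chromosome, was between 2 and 6 in the normoxia libraries and was not tested.

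Among clock genes 2 of 17 were higher in both KO libraries and 2 were lower. Arntl, the activator that drives the clock, was at 147 and 84 in WT and at 249 and 215 in KO (log2 difference 1.05 ± 0.31), and in hypoxia it was at 179 and 129 in WT and at 298 and 260 in KO. Igfbp4, an insulin-like growth factor binding protein, was at 1454 and 2234 in WT and at 3915 and 2664 in KO (0.84 ± 0.32). Of 14 tested genes of the insulin-like growth factor axis, it was the 1 higher in both KO libraries, and 1 was lower. In that list 10 log2 differences were negative, and the median was -0.11 (0.18 without WT normoxia replicate 2). Of 27 tested immediate-early genes, 5 were lower in both KO libraries and 3 were higher, with a median of -0.15. The median was 0.009 without KO normoxia replicate 1 and 0.11 without WT normoxia replicate 1. Lower at both oxygen levels was Ier3, at 810 and 859 in WT and at 579 and 601 in KO. So was Dusp1, a phosphatase of MAP kinases, at 691 and 801 in WT and at 514 and 567 in KO. Across 20 chromosomes the median log2 difference of tested protein-coding genes in normoxia ran from -0.135 to 0.086.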
